A study of Mus musculus with 2 samples.

Results

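Among mononuclear phagocytes sorted from B16 melanoma tumors, 718 of 14351 cells were taken as dividing macrophages in G2 and mitosis. Members were selected on the measured levels of Mki67, Top2a, Cenpf, Ccnb2, Ccnb1 and Tpx2, 6 genes of late G2 and mitosis. In each cell that passed the limits of 200 to 7000 genes and at most 30% mitochondrial UMIs (unique molecular identifiers, each standing for 1 captured transcript), the UMIs of the 6 genes were summed and divided by all UMIs of the cell, and the top 5% of the pooled cells were kept. The members comprised 334 of 6352 Fcmr+/+ cells and 384 of 7999 Fcmr-/- cells, and the remaining 6018 and 7615 cells served as the comparison within each genotype. Because expression chose the members, every difference between members and remaining cells is a description, and no test was made of it.

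The study asked how Fcmr, which encodes a putative receptor for soluble IgM, shapes phagocytes in tumors. MerTk+ CD64+ cells were sorted from enzymatically dissociated B16 tumors of 500 to 1000 mm3 grown in C57Bl/6 mice, and single-cell RNA was captured in droplets and read from the 3' end of transcripts. The 2 libraries were 1 from Fcmr+/+ mice, with the receptor gene intact, and 1 from Fcmr-/- mice, with the gene deleted in the germline and so in every tissue, phagocytes and tumor-bearing host alike. All animals carried the same transplanted melanoma, a line of C57Bl/6 origin. Neither ages nor the number of mice per library are given in the sources used here. With 1 library per genotype, genotype and library cannot be told apart, and no test between them was possible. Deposited UMIs numbered 131062107 for Fcmr+/+ and 125802196 for Fcmr-/-, of which members carried 9753836 and 9041856. Levels are UMIs summed over a group of cells per 1000000 UMIs of that group (CPM), with exact Poisson 95% intervals that cover counting error only. Fcmr itself (ENSMUSG00000042474, plus strand of GRCm38, chr1:130865669-130880791) had 0 UMIs in members of either library, where a count of 0 allows up to 3 UMIs. Among remaining cells 4 of the Fcmr+/+ library carried it, with 7 UMIs in sum, and 6 of the Fcmr-/- library, with 6 UMIs, so its level does not check the genotype labels.

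A cell that enters division copies its DNA in S phase, pauses in G2 and then separates its chromosomes in mitosis. Cyclin B and the kinase CDK1 drive entry into mitosis, kinesins and microtubule-binding proteins build the spindle, kinetochores tie chromosomes to it, and the anaphase-promoting complex marks cyclin B and securin for destruction so that the cell can divide. Transcripts of these genes accumulate in G2, which makes them useful labels of cycling cells. Tissue macrophages can divide locally, in response to growth factors such as CSF-1.

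The values that chose the members were as follows. Mki67, a coat protein of mitotic chromosomes, had 507 CPM (interval 493 to 521) in Fcmr+/+ members against 47.3 in remaining cells and 482 CPM (interval 468 to 496) against 32.2 in Fcmr-/-. Top2a, the topoisomerase that untangles sister chromatids, had 518 CPM (interval 504 to 533) in Fcmr+/+ members against 28.5 in remaining cells and 616 CPM (interval 600.2 to 633) against 29.5 in Fcmr-/-. Both were the most abundant of the 6 by UMIs and in that order gave 26.8% and 27.4% of the marker UMIs of Fcmr+/+ members, and 24.6% and 31.5% of those of Fcmr-/- members. Cenpf, a protein of the outer kinetochore, had 257 CPM in Fcmr+/+ members against 8.27 in remaining cells and 285 CPM against 8.89 in Fcmr-/-. Ccnb1, which encodes cyclin B1, had 223 CPM in Fcmr+/+ members against 10.7 in remaining cells and 203 CPM against 9.68 in Fcmr-/-. Ccnb2, which encodes cyclin B2, had 192 CPM in Fcmr+/+ members against 24.5 in remaining cells and 176 CPM against 21.0 in Fcmr-/-, the smallest contrast of the 6. Tpx2, which activates Aurora A on spindle microtubules, had 194 CPM in Fcmr+/+ members against 14.2 in remaining cells and 193 CPM against 13.4 in Fcmr-/-. At least 1 UMI of all 6 genes was found in 271 of 334 Fcmr+/+ members and 275 of 384 Fcmr-/- members, and at least 5 of the 6 in 324 and 346.

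**Figure D1:**
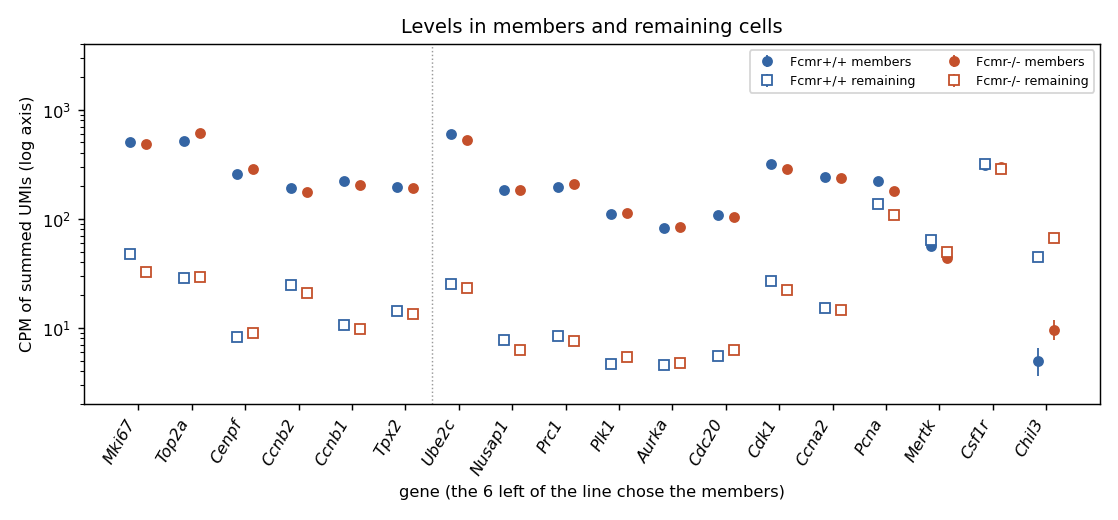
Level (CPM of summed UMIs, log axis) of the 6 genes that chose the members and of other genes, in members (filled circles) and remaining cells (open squares) of Fcmr+/+ (blue) and Fcmr-/- (red), with exact Poisson 95% intervals, most of which are smaller than the symbols. Mitotic genes are far above the remaining cells in both libraries, Mertk and Csf1r lie close together in members and remaining cells, and Chil3 is lower in members.

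The limit was set by rank and not by a gap in the values. The last member held 17 marker UMIs of 14772, which is 1151 per 1000000 UMIs, and the first cell outside held 9 of 7822, also 1151 per 1000000. Within 10% of that limit lay 85 members and 99 remaining cells. Members carried a median of 52 marker UMIs in Fcmr+/+ (lowest 9, highest 155) and 43.5 in Fcmr-/- (lowest 7, highest 118). In contrast, 51.9% of the remaining Fcmr+/+ cells and 63.8% of the remaining Fcmr-/- cells had 0. The remaining cells therefore include cells with marker UMIs short of the limit.

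Members were the deeper cells of both libraries. Their median was 28388 UMIs and 5159.5 genes in Fcmr+/+, against 17455.5 UMIs and 3669.5 genes in the remaining cells, and 22403 UMIs and 4621 genes in Fcmr-/-, against 12591 UMIs and 3103 genes. The mitochondrial share was 5.22% against 4.66% in Fcmr+/+ and 4.87% against 4.02% in Fcmr-/-. With each library cut into 4 equal bins by UMIs per cell, members were 1.07% of Fcmr+/+ and 1.25% of Fcmr-/- cells in the lowest bin and 12.8% and 11.4% in the highest. Doublets, which are deep as well, were limited only by the ceiling of 7000 genes. With every cell thinned to 5000 UMIs before ranking, the medians of the gene lists were, in Fcmr+/+ and Fcmr-/-, 3.53 and 3.66 for mitotic genes, -2.38 and -1.86 for monocyte genes and -0.74 and -0.90 for hypoxia genes on the log2 scale.

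The label was checked against 8 macrophage genes (Mertk, Fcgr1, Adgre1, Csf1r, Cd68, C1qa, C1qb and Lyz2). At least 5 of them had a UMI in 333 of 334 Fcmr+/+ members and in 380 of 384 Fcmr-/- members, against 98.3% and 97.3% of the remaining cells. Since 9 Fcmr-/- members carried markers of other cell types and 4 failed, this count does not by itself separate macrophages from other cells. Mertk, the receptor used in the sort, had 56.0 CPM in Fcmr+/+ members against 63.4 in remaining cells and 43.5 CPM against 49.1 in Fcmr-/-. Fcgr1, which encodes the other sort marker CD64, had 181 CPM in Fcmr+/+ members against 256 in remaining cells and 294 CPM against 402 in Fcmr-/-, so its level was lower in members of both libraries. Csf1r, the receptor for the macrophage growth factor CSF-1, had 312 CPM in Fcmr+/+ members against 318 in remaining cells and 296 CPM against 286 in Fcmr-/-. A list of 24 macrophage identity genes took 45588 CPM in Fcmr+/+ members and 48339 in remaining cells, and 42429 and 45591 in Fcmr-/-. Its median log2 ratio (after adding 1 CPM, over the genes that reached 5 CPM in members or remaining cells, as for all lists) was -0.099 in Fcmr+/+ and -0.11 in Fcmr-/-, against 0.14 for all genes in each library. Lyz2, a lysozyme gene, was the most abundant of the list, with 7699 CPM in Fcmr+/+ members against 9044 in remaining cells and 6848 CPM against 9181 in Fcmr-/-.

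A few members carried markers of other cell types. In Fcmr-/-, 5 members held 1059 of the 1087 UMIs of a T and NK cell list of 13 genes, led by the granzyme gene Gzmb, and their median for the macrophage identity list was 11322 CPM against 42361 for all Fcmr-/- members. That list stood at 120 CPM in Fcmr-/- members and 12.3 in remaining Fcmr-/- cells, against 3.79 and 4.60 in Fcmr+/+, where Gzmb, Nkg7, Cd3g and Cd3d were at 0 in members. A further Fcmr-/- member held 299 UMIs of a B and plasma cell list, mostly Jchain, and 1 Fcmr+/+ member held 114 UMIs of a neutrophil list, 90 of them S100a9. Members with at least 5 UMIs of a dendritic cell list numbered 1 in Fcmr+/+ and 2 in Fcmr-/-, and of a fibroblast list 1 in Fcmr-/-. With lists reduced to genes under 5 CPM in the remaining cells, as for all these counts, no member reached 5 UMIs for melanoma, endothelial cells, plasmacytoid dendritic cells, mast cells and basophils, or erythroid cells. Over all 10 reduced lists, these were 2 Fcmr+/+ and 9 Fcmr-/- members. The whole melanoma list, unreduced, took 66.4 CPM in members and 87.8 in remaining cells of Fcmr+/+ and 86.7 and 123 in Fcmr-/-, and 34 Fcmr+/+ members (10.2%) and 44 Fcmr-/- members (11.5%) held at least 5 of its UMIs, against 7.83% of remaining cells in each library. Members are deeper cells, and the part of depth in these shares was not tested. Mitf alone gave 284 of the 648 UMIs of the whole melanoma list in Fcmr+/+ members and 299 of 784 in Fcmr-/- members. Between the 2 libraries 73 cell barcodes were shared, 7 of them in members.

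Most genes of the mitotic machinery were higher in members, in both libraries and to a like extent. Of all genes that reached 5 CPM, 482 of 8967 (5.38%) were at least 2-fold higher in Fcmr+/+ members and 532 of 9003 (5.91%) in Fcmr-/- members, and at a minimum of 20 CPM these counts were 306 and 330. Among 85 genes for mitotic cyclins and kinases, the spindle, kinetochores and cytokinesis, leaving out the 6 that chose the members, 84 were at least 2-fold higher in each library. Their median log2 ratio was 3.33 in Fcmr+/+ and 3.32 in Fcmr-/-. Since these genes are used in the same phase as the 6 selecting genes, nothing further is read from that count.

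Among the kinases and cyclins, Cdk1, the kinase that cyclin B activates, had 317 CPM (interval 306 to 328) in Fcmr+/+ members against 26.7 in remaining cells and 287 CPM (interval 276 to 299) against 22.4 in Fcmr-/-. Ccna2, which encodes cyclin A2 of S phase and G2, had 241 CPM in Fcmr+/+ members against 15.3 in remaining cells and 237 CPM against 14.7 in Fcmr-/-. Plk1, the Polo kinase of mitotic entry and spindle assembly, had 109.7 CPM (interval 103 to 116) in Fcmr+/+ members against 4.62 in remaining cells and 112 CPM (interval 105 to 119) against 5.37 in Fcmr-/-. Aurka, the Aurora kinase of spindle poles, had 82.2 CPM in Fcmr+/+ members against 4.58 in remaining cells and 84.2 CPM against 4.75 in Fcmr-/-. Birc5, which encodes survivin of the chromosomal passenger complex, had the most UMIs of this list and reached log2 ratios of 3.57 and 3.60 in Fcmr+/+ and Fcmr-/-. Pbk, a kinase active in mitosis, reached 3.99 and 3.94, and Cks1b, a small subunit of cyclin-dependent kinases, 2.76 and 2.76. Of the 25 genes of this list, 24 were at least 2-fold higher in each library. The exception was Wee1, the kinase that holds CDK1 inactive, which had 5.23 CPM in Fcmr+/+ members against 4.95 in remaining cells and 5.75 CPM against 3.69 in Fcmr-/-.

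All 22 spindle genes were at least 2-fold higher in both libraries, with unequal size. Nusap1, which bundles spindle microtubules, had 183 CPM in Fcmr+/+ members against 7.73 in remaining cells and 185 CPM against 6.32 in Fcmr-/-. Aspm, which focuses spindle poles, had 69.5 CPM in Fcmr+/+ members against 2.03 in remaining cells and 68.2 CPM against 2.43 in Fcmr-/-. The motor genes Kif11, which pushes spindle poles apart, and Kif2c, which shortens microtubules at kinetochores, reached log2 ratios of 4.06 and 4.13 and of 4.11 and 3.93 in Fcmr+/+ and Fcmr-/-. The tubulins and stathmin had high levels in remaining cells too. Tuba1b, an alpha-tubulin, had 1734 CPM in Fcmr+/+ members against 569 in remaining cells and 1501 CPM against 509 in Fcmr-/-, Tubb5 reached log2 ratios of 1.69 and 1.76, Tubb4b 2.29 and 2.20, and Stmn1, a microtubule-destabilizing protein, 2.46 and 2.64.

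Kinetochore genes (24 of 24) and cytokinesis genes (14 of 14) were at least 2-fold higher as well. Cenpe, the kinesin that captures microtubules at kinetochores, had 192 CPM in Fcmr+/+ members against 9.77 in remaining cells and 206 CPM against 10.6 in Fcmr-/-. Cenpa, the histone variant that marks centromeres, had 368 CPM in Fcmr+/+ members against 64.1 in remaining cells and 302 CPM against 49.7 in Fcmr-/-. Spc25 and Spc24, subunits of the NDC80 complex, reached log2 ratios of 3.60 and 3.63 and of 2.89 and 3.14, and Sgol2a, a shugoshin that guards cohesion at centromeres, 3.95 and 3.92. Prc1, which bundles microtubules between the separating chromosomes, had 195 CPM in Fcmr+/+ members against 8.45 in remaining cells and 209.9 CPM against 7.61 in Fcmr-/-. Of the other cytokinesis genes, the central spindle motor Kif23 reached 4.03 and 3.91, its partner Racgap1 3.42 and 3.55, the contractile ring protein Anln 3.96 and 3.91 and Cdca3, which promotes degradation of the kinase WEE1, 3.23 and 3.44. Fam64a, also among the 15 genes with the largest contrast in both libraries, reached 4.15 and 4.04.

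The enzyme and the activator that work with the anaphase-promoting complex had larger contrasts than its core subunits. Ube2c, the ubiquitin-conjugating enzyme of the anaphase-promoting complex, had 592 CPM (interval 577 to 608) in Fcmr+/+ members against 25.5 in remaining cells and 527 CPM (interval 512 to 542) against 23.1 in Fcmr-/-, the largest contrast among genes outside the selecting 6 when the smaller of its 2 log2 ratios (4.49 and 4.46) is ranked. Cdc20, the activator of the complex in mitosis, had 109 CPM in Fcmr+/+ members against 5.56 in remaining cells and 103 CPM against 6.20 in Fcmr-/-. Ube2s, which extends the ubiquitin chains, reached 1.94 and 2.02. The core subunits Anapc11 and Anapc5, in contrast, reached 1.07 and 1.00 and 1.04 and 0.99. Over the 20 genes of this list the median was 0.95 in Fcmr+/+ and 0.79 in Fcmr-/-, with 10 and 8 genes at least 2-fold higher. Genes of condensin, cohesin and mitotic chromatin had a median of 1.87 in Fcmr+/+ and 1.95 in Fcmr-/-, with 21 and 23 of 26 at least 2-fold higher. Smc4, a condensin subunit that compacts chromosomes, had 357 CPM in Fcmr+/+ members against 53.2 in remaining cells and 376 CPM against 52.2 in Fcmr-/-, and the chromatin protein gene Hmgb2 had 852 CPM in Fcmr+/+ members against 166 in remaining cells and 1135 CPM against 175 in Fcmr-/-. H2afz, a histone variant made outside S phase too, and Hmgb1 reached 1.61 and 1.67 and 1.39 and 1.57.

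Mitotic genes moved together, so their promoters are shown for the short elements that G2 genes are known to share. The element called CHR (cell cycle genes homology region, searched as TTTGAA) is bound by the MuvB complex, CCAAT by NF-Y, and TTTCCCGC and TTTGGCGC are sites of the E2F family. RefSeq promoters on GRCm38.p6 reach from 250 bases before a gene's start to 50 bases after it. They were listed for 70 of the 85 mitotic genes (76 promoters) and for 5 of the 6 selecting genes. On either strand, TTTGAA was present in 59.2% of the mitotic gene promoters and in 17.9% of all 32851 promoters. CCAAT was present in 68.4% against 37.4%. TTTCCCGC was present in 2.63% (2 promoters) against 1.07% and TTTGGCGC in 3.95% (3 promoters) against 0.514%. In the 250 bases before the start alone, TTTGAA was present in 28.9% of the mitotic gene promoters and 16.0% of all, so many of the matches lay in, or reached into, the 50 bases after the annotated start. Among the 5 selecting genes, CCAAT was present in 5 promoters and TTTGAA in 4. None of the 4 motifs contains another, a match is a description of these letters and not of binding, and the replication and macrophage identity lists had too few promoters listed (39 of 50 and 17 of 24 genes) for a share. The 120 bases directly before the start of 4 genes, outside their transcripts, are printed 5′ to 3′ on the gene's strand, with matches to the 4 motifs on either strand in capitals. In these stretches Ccnb1 and Ccnb2 held CCAAT 2 and 3 times, Top2a held it on both strands and a TTTGAA on the opposite strand 23 to 18 bases before the start, and Plk1 held 1 CCAAT.
Ccnb1 (chr13:100786487-100786606, minus strand): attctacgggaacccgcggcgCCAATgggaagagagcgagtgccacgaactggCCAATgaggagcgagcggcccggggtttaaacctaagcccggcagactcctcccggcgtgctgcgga
Ccnb2 (chr9:70421555-70421674, minus strand): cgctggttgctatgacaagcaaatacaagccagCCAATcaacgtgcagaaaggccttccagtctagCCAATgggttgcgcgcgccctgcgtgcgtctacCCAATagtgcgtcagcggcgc
Top2a (chr11:99024190-99024309, minus strand): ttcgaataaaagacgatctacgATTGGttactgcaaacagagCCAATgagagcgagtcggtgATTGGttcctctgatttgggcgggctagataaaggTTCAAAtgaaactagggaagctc
Plk1 (chr7:122159315-122159434, plus strand): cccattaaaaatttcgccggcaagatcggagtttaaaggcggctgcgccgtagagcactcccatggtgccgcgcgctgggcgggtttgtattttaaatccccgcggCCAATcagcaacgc

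Genes of DNA replication, the phase before G2, were higher in members to a smaller extent. Of 50 genes that reached 5 CPM in Fcmr+/+ and 49 in Fcmr-/-, 26 and 29 were at least 2-fold higher and 1 was at least 2-fold lower in each, with a median of 1.09 in Fcmr+/+ and 1.32 in Fcmr-/-. The gene that was lower was Ung, which encodes uracil-DNA glycosylase of DNA repair, with log2 ratios of -1.90 and -1.10. Pcna, the sliding clamp of DNA polymerase, had 223 CPM in Fcmr+/+ members against 136 in remaining cells and 180.4 CPM against 107 in Fcmr-/-. Rrm1, the large subunit of ribonucleotide reductase, had 166 CPM in Fcmr+/+ members against 36.7 in remaining cells and 167 CPM against 32.3 in Fcmr-/-, and Tk1, thymidine kinase, reached 2.79 and 2.90. 2810417H13Rik, the mouse name here for the PCNA-binding factor PCLAF, had 362 CPM in Fcmr+/+ members against 43.4 in remaining cells and 430.1 CPM against 47.2 in Fcmr-/-. Replicative histones, most of whose transcripts carry no poly(A) tail and are poorly caught from the 3' end, had a median of 2.55 in Fcmr+/+ and 2.60 in Fcmr-/- over 10 and 13 genes. Hist1h1b reached 3.40 and 3.59 and Hist1h2ap 3.12 and 3.88, whereas Hist1h2bc reached -0.046 and 0.29 and Hist1h1c -0.50 and 0.33. Histone genes of this cluster are near-identical copies, so reads may be split among them and single values are uncertain.

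Members were compared with the cells most like them, those in the top 5% of the pooled cells by 8 S-phase genes (Mcm5, Mcm6, Pcna, Gins2, Tyms, Ung, Slbp and Clspn), ranked in the same way. In Fcmr+/+ 73 of 334 members (21.9%, Clopper-Pearson interval 17.5 to 26.7) were in both groups, and in Fcmr-/- 74 of 384 (19.3%, interval 15.4 to 23.6), against 4.80% and 3.70% of the remaining cells. These values were chosen by the 2 rules and are given as a description. Members outside the S-phase group had 157 CPM of Pcna in Fcmr+/+ and 124 in Fcmr-/-, against 483 and 418 in members within it and 475 and 376 in S-phase cells that were not members. Cdc20, which the rules did not use, had 129 and 122 CPM in members outside the S-phase group, 29.5 and 21.5 in cells of both groups and 5.70 and 7.70 in S-phase cells alone. Ube2c showed the same steps, at 674 and 601, 266 and 213, and 41.3 and 42.1 CPM. Cdk1, in contrast, had 318 and 289 CPM in members outside the S-phase group and 311 and 280.4 in cells of both. Foxm1 had 56.2 and 49.0 CPM against 63.2 and 52.8.

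Of 24 transcription factors of the cell cycle that reached 5 CPM in Fcmr+/+ and 23 in Fcmr-/-, 8 were at least 2-fold higher in each library (median 0.74 in Fcmr+/+ and 0.66 in Fcmr-/-). Foxm1, which drives G2 and mitotic genes, had 57.6 CPM (interval 53.0 to 62.6) in Fcmr+/+ members against 5.03 in remaining cells and 49.8 CPM (interval 45.3 to 54.6) against 3.34 in Fcmr-/-. Mybl2, which encodes B-Myb, the partner of MuvB in G2, had 12.5 CPM in Fcmr+/+ members against 4.22 in remaining cells and 13.2 CPM against 3.30 in Fcmr-/-. The MuvB subunits Rbbp4 and Lin54 reached 0.76 and 0.85 and 0.86 and 0.64. The list of 19 G1 cyclins and inhibitors of cyclin-dependent kinases had medians near that of all genes, 0.16 in Fcmr+/+ and 0.20 in Fcmr-/-. Within it Btg1, an antiproliferative gene, had 386 CPM in Fcmr+/+ members against 847 in remaining cells and 424 CPM against 943 in Fcmr-/- and was at least 2-fold lower in both, and its relative Btg2 reached -0.87 and -0.76. The genes at least 2-fold higher in both were Cdkn2c, with 139 CPM (interval 132 to 147) in Fcmr+/+ members against 13.3 in remaining cells and 120.4 CPM (interval 113 to 128) against 9.84 in Fcmr-/-, and Cdkn2d, with log2 ratios of 2.16 and 2.54, which encode the CDK4 and CDK6 inhibitors of the INK4 family. Cdkn1a, which encodes the inhibitor p21, had 397 CPM in Fcmr+/+ members against 537 in remaining cells and 394 CPM against 529 in Fcmr-/-. Cdkn1b, which encodes p27, had 30.4 CPM in Fcmr+/+ members against 24.1 in remaining cells and 36.6 CPM against 31.2 in Fcmr-/-, and Cdk4, the kinase of G1, reached 0.53 and 0.43.

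Regulators tied to macrophage division had medians below that of all genes. Maf had 481 CPM (interval 467 to 494) in Fcmr+/+ members against 409 in remaining cells and 519 CPM (interval 504 to 534) against 438 in Fcmr-/-, higher in members of each library beyond counting error. It encodes the transcription factor c-Maf, which is known to restrain macrophage proliferation. Igf1, a growth factor gene, had 369 CPM in Fcmr+/+ members against 317 in remaining cells and 242 CPM against 234 in Fcmr-/-. The list of 11 such genes had a median of -0.20 in Fcmr+/+ and -0.24 in Fcmr-/-, with 1 gene at least 2-fold lower in Fcmr+/+ and 0 in Fcmr-/-. That gene was Klf4, a transcription factor of monocytes and of induced pluripotency, with log2 ratios of -1.17 and -0.93.

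Levels changed by degrees with the rank by marker share, inside the members and beyond them. With members cut into 4 equal bins from the lowest to the highest marker share, the summed level of the 85 mitotic genes was 9741, 11337, 13014 and 14982 CPM in Fcmr+/+, and in Fcmr-/- it was 9029, 10463, 12258 and 15329.6. Replication genes went the other way in Fcmr-/-, from 3623 to 2539.7 CPM, and less so in Fcmr+/+, from 2922 to 2519. MHC class II genes went from 3927 to 1359 CPM in Fcmr+/+ and from 6381 to 4711 in Fcmr-/-. Over all cells the mitotic genes had 14008 CPM in the top 2.5% of Fcmr+/+ cells, 6012 in cells ranked between 7.5% and 10%, and 1254 in those beyond 40%. Replication genes were highest outside the very top, with 2726 CPM in the top 2.5% and 3307 between 7.5% and 10% in Fcmr+/+, and 2664 in the top 2.5% and 3397 between 2.5% and 5% in Fcmr-/-.

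**Figure D2:**
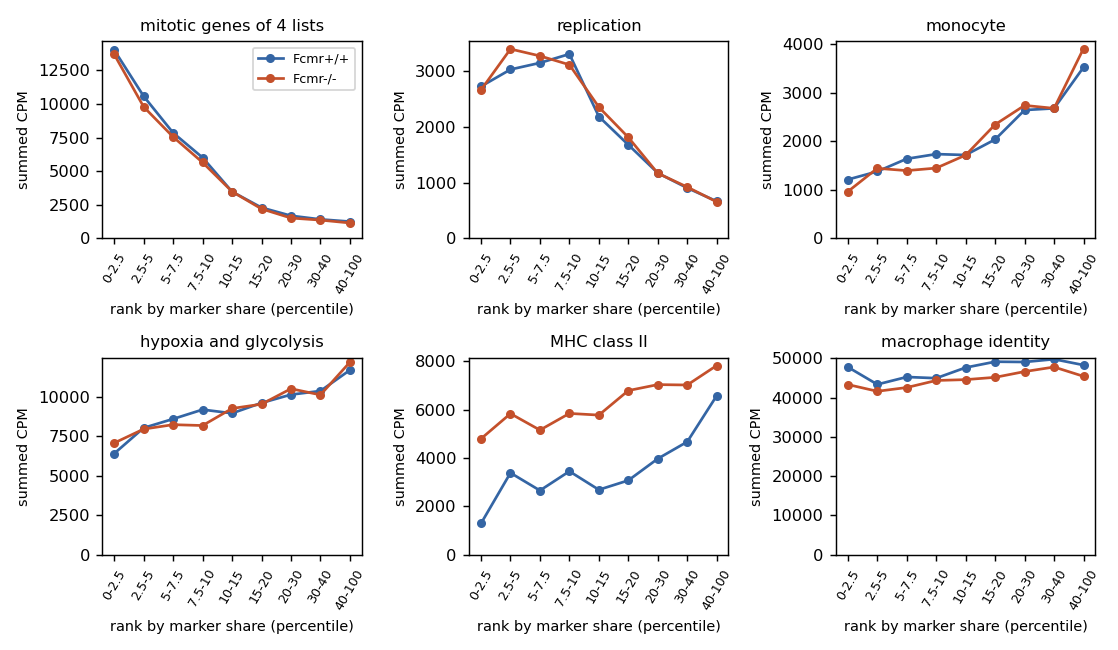
Summed level (CPM) of 6 gene lists in cells binned by their rank in marker share (percentile of the pooled cells, members are the 2 leftmost bins), for Fcmr+/+ (blue) and Fcmr-/- (red). Mitotic genes fall from 14008 and 13684 CPM in the top bin, replication genes peak in later bins, monocyte and hypoxia genes climb toward the cells with the lowest marker share, and macrophage identity genes stay between 41622 and 49792 CPM.

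Monocyte genes were lower in members of both libraries, against a background of 157 of 8967 genes (1.75%) at least 2-fold lower in Fcmr+/+ and 157 of 9003 (1.74%) in Fcmr-/-. These counts were 295 and 275 after thinning to 5000 UMIs, 247 and 240 as a mean over cells and 88 and 98 at a minimum of 20 CPM. All 12 genes of a list of recently recruited monocytes were lower in each library, 9 and 10 of them at least 2-fold, with a median of -1.80 in Fcmr+/+ and -1.33 in Fcmr-/-. Chil3, a chitinase-like lectin, had 4.92 CPM (interval 3.63 to 6.52) in Fcmr+/+ members against 44.6 in remaining cells and 9.62 CPM (interval 7.71 to 11.9) against 66.1 in Fcmr-/-. Ly6c2, the antigen that marks inflammatory monocytes, had 4.20 CPM in Fcmr+/+ members against 33.3 in remaining cells and 30.9 CPM against 114 in Fcmr-/-. Without cells that carried at least 5 UMIs of another cell type, Ly6c2 had 22.9 CPM in Fcmr-/- members against 114 in remaining cells. Thbs1, thrombospondin 1, had 251 CPM in Fcmr+/+ members against 948 in remaining cells and 250.1 CPM against 1204 in Fcmr-/-, and Fn1, fibronectin, reached -1.13 and -1.28. F13a1, a coagulation factor subunit, had the most UMIs of the list among members and one of its smallest contrasts, -0.43 and -0.40, beside Clec4e, a C-type lectin, at -0.43 and -1.12.

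All 23 genes of hypoxia and glycolysis were lower in members of both libraries (8 and 7 at least 2-fold), with a median of -0.61 in Fcmr+/+ and -0.62 in Fcmr-/-. Gapdh, a glycolytic enzyme, had 2351 CPM in Fcmr+/+ members against 3134 in remaining cells and 2339 CPM against 2940.4 in Fcmr-/-. Ldha, lactate dehydrogenase A, reached -0.52 and -0.50, Aldoa, an aldolase, -0.61 and -0.60 and Pgam1, a phosphoglycerate mutase, -0.45 and -0.47. Oxidative phosphorylation genes were close to the median of all genes, at 0.091 in Fcmr+/+ and 0.084 in Fcmr-/- over 26 genes, of which 0 passed 2-fold in either direction. Cox4i1, of cytochrome c oxidase, reached 0.044 and 0.087 and Atp5b, of ATP synthase, 0.23 and 0.21.

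**Figure D3:**
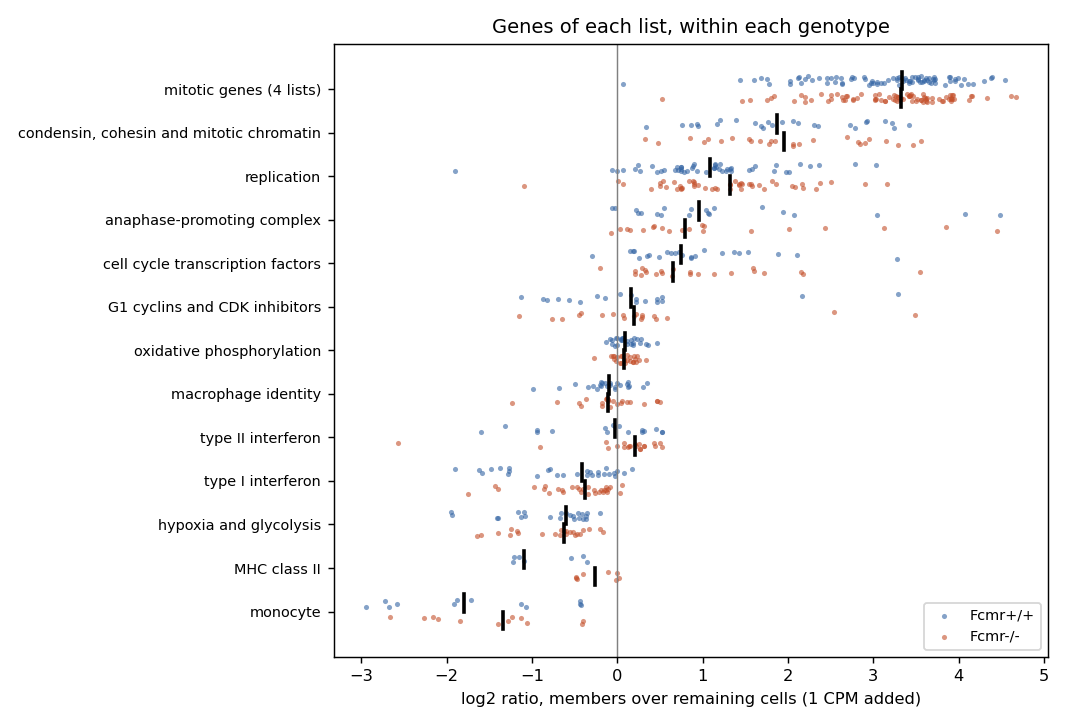
Log2 ratio of members over remaining cells (1 CPM added) for each gene of the lists that reached 5 CPM, in Fcmr+/+ (blue) and Fcmr-/- (red), with a black tick at each list's median. Mitotic genes center at 3.33 and 3.32, hypoxia and monocyte genes lie left of 0 in both libraries, and MHC class II genes center at -1.09 in Fcmr+/+ and -0.26 in Fcmr-/-.

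Several genes linked to tissue remodeling and inflammation were also lower in members. Spp1, osteopontin, had 1206 CPM in Fcmr+/+ members against 2843 in remaining cells and 1313 CPM against 5309 in Fcmr-/-. The remodeling list of 18 genes had a median of -0.31 in Fcmr+/+ and -0.52 in Fcmr-/-, with 6 and 6 at least 2-fold lower, while Sepp1, a selenium transport protein, reached -0.080 and 0.12 and Pf4, a platelet factor chemokine, -0.30 and -0.44. Cytokine genes had a median of -0.23 in Fcmr+/+ and -0.49 in Fcmr-/- over 17 genes. Cxcl2, a neutrophil chemokine, had 2996 CPM in Fcmr+/+ members against 3512 in remaining cells and 2015 CPM against 3568 in Fcmr-/-, and the monocyte chemokines Ccl2 and Ccl7 reached -0.050 and -0.33 and -0.29 and -0.53. Of the 10 genes with the lowest values in both libraries, Inhba, a subunit of activin A, reached -2.51 and -2.63, Slpi, a protease inhibitor, -2.34 and -2.27, the chemokine genes Ppbp and Cxcl3 -2.39 and -2.18 and -2.01 and -3.01, Rgcc, a regulator of the cell cycle, -2.10 and -2.18 and Rsad2, an antiviral enzyme induced by interferon, -1.90 and -1.74. Immediate-early genes, which also respond to tissue dissociation, had a median of -0.31 in Fcmr+/+ and -0.42 in Fcmr-/- over 15 genes, with Junb at -0.56 and -0.73, Dusp1 at -0.40 and -0.42, Zfp36 at -0.094 and -0.054 and Fos at -0.13 and -0.045.

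Genes of MHC class II and of type I interferon responses were mostly lower in members. The 7 genes of MHC class II that reached 5 CPM in Fcmr+/+ had a median of -1.09, 4 of them at least 2-fold lower, and the 8 in Fcmr-/- a median of -0.26, 0 of them 2-fold lower. With the top 2.5% of cells as members these medians were -1.94 and -0.45. Cd74, the invariant chain, had 1035 CPM (interval 1015 to 1056) in Fcmr+/+ members against 2397 in remaining cells and 2408 CPM (interval 2376 to 2440.4) against 3379.8 in Fcmr-/-. H2-Aa, H2-Ab1 and H2-Eb1, chains of the class II molecules, reached -1.15, -1.09 and -1.22 in Fcmr+/+ and -0.40, -0.48 and -0.47 in Fcmr-/-. Type I interferon genes had a median of -0.42 in Fcmr+/+ and -0.37 in Fcmr-/-, with 8 of 28 and 3 of 30 genes at least 2-fold lower. Isg15, a ubiquitin-like modifier, had 64.8 CPM in Fcmr+/+ members against 157 in remaining cells and 145 CPM against 285 in Fcmr-/-, and Bst2, tetherin, the most abundant of the list by UMIs, reached -0.10 and -0.22. Type II interferon genes had a median of -0.030 in Fcmr+/+ and 0.21 in Fcmr-/-, and the immunoproteasome genes Psmb8 and Psmb9 reached 0.12 and 0.25 and 0.53 and 0.52.

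The share of cells that were members was also read across states, by cutting each library into 4 equal bins by the summed share of a list in each cell. This reading was added after the list values were seen. In the bin with the lowest monocyte share, 11.3% of Fcmr+/+ cells (Clopper-Pearson interval 9.76 to 12.9) and 12.8% of Fcmr-/- cells (interval 11.4 to 14.3) were members. In the bin with the highest, 0.630% (interval 0.302 to 1.16) and 0.300% (interval 0.110 to 0.652) were. In the lowest and highest bins of hypoxia and glycolysis, the share was 10.7% and 1.07% in Fcmr+/+ and 10.4% and 0.500% in Fcmr-/-. For MHC class II it was 9.01% and 2.02% in Fcmr+/+ and 6.65% and 3.00% in Fcmr-/-. For oxidative phosphorylation the direction was the opposite, 1.83% and 7.68% in Fcmr+/+ and 2.20% and 6.55% in Fcmr-/-. For macrophage identity the outer bins were alike, 4.09% and 4.03% in Fcmr+/+ and 4.45% and 4.20% in Fcmr-/-. The middle bins were higher, at 6.49% and 6.42% in Fcmr+/+ and 5.70% and 4.85% in Fcmr-/-.

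Depth moved with these bins. The lowest and highest monocyte bins had medians of 20759 and 11804 UMIs per cell in Fcmr+/+ and 16131 and 9230 in Fcmr-/-. The bins of oxidative phosphorylation ran the other way, from 11926 to 22732 in Fcmr+/+. With the members ranked and the bins set on cells thinned to 5000 UMIs each, which left out 0 cells, the monocyte shares were 11.6% and 0.630% in Fcmr+/+ and 11.5% and 0.350% in Fcmr-/-. Those of hypoxia and glycolysis were 10.3% and 1.13%, and 9.45% and 0.650%. For MHC class II the thinned shares were 8.94% and 2.33% in Fcmr+/+ and 5.40% and 2.85% in Fcmr-/-. For oxidative phosphorylation they were 2.14% and 8.75%, and 2.60% and 6.05%. Before thinning, the cells of these bins still differed in depth, with medians of 20867 and 12003 UMIs in the outer monocyte bins of Fcmr+/+. The part of depth in these contrasts was not tested.

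**Figure D4:**
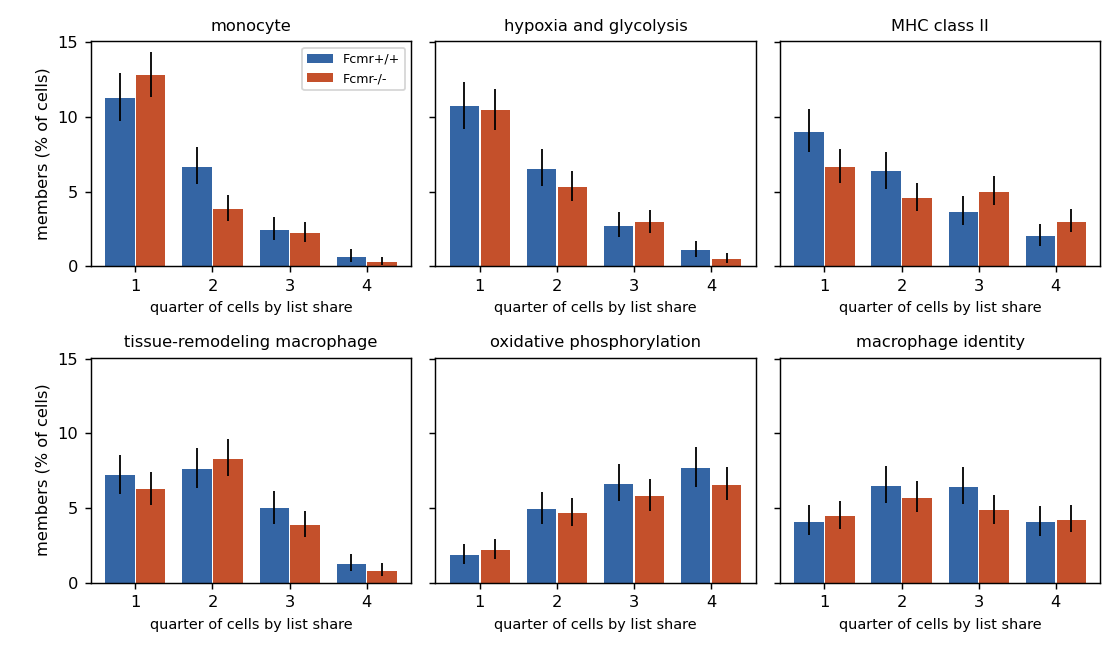
Members as a percentage of cells (bars, with Clopper-Pearson 95% intervals for counting error) in each of 4 equal bins of cells ordered by the share of UMIs on a list (1 lowest, 4 highest), for Fcmr+/+ (blue) and Fcmr-/- (red). For the monocyte list the bars go from 11.3% and 12.8% to 0.630% and 0.300%, and for oxidative phosphorylation they go up. For macrophage identity the outer bins are alike and the middle bins are higher.

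Members were 5.26% of Fcmr+/+ cells (Clopper-Pearson interval 4.72 to 5.84) and 4.80% of Fcmr-/- cells (interval 4.34 to 5.29), and these intervals overlap. With every cell thinned to 5000 UMIs the shares were 5.62% (interval 5.07 to 6.22) and 4.51% (interval 4.07 to 4.99), which do not overlap. Ranked by the raw UMI sum they were 5.95% and 4.25%, which do not overlap either. The raw sum is not scaled by depth, and the median cell kept had 17973.5 UMIs in Fcmr+/+ and 12911 in Fcmr-/-. The comparison of shares therefore depends on the ranking. Mitotic genes had a median log2 ratio of Fcmr-/- to Fcmr+/+ of -0.0031 in members and -0.11 in remaining cells, and replication genes of 0.16 in members and -0.046 in remaining cells. In members the mitotic value was 0.12 after thinning to 5000 UMIs and 0.17 with at most 5000 genes per cell, so its direction depends on the setting, and the replication value was 0.069 after thinning and 0.050 with the top 2.5% of cells as members. Plk1 in members was 109.7 CPM in Fcmr+/+ and 112 in Fcmr-/-, with overlapping intervals. Of the 85 genes, 40 were higher and 45 lower in Fcmr-/- members, beside 4318 higher and 4682 lower of all 9000 genes. Among the lower genes was Cdk1, at 317 CPM in Fcmr+/+ and 287 in Fcmr-/- members. Outside these lists, Ube2c was 592 and 527 CPM and Hmgb2 was 852 and 1135, lower and higher in Fcmr-/- members beyond counting error.

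Larger differences between members of the 2 libraries lay in interferon-induced genes. Of 9000 genes, 133 (1.48%) were at least 2-fold higher in Fcmr-/- members and 37 (0.411%) lower. With every cell thinned to 5000 UMIs these counts were 251 and 137. In remaining cells, 69 of 8643 (0.798%) were higher and 27 (0.312%) lower. Type II interferon genes had a median log2 ratio of 1.24 in members and 1.14 in remaining cells, with 14 and 13 of 21 at least 2-fold higher. Type I genes had a median of 0.72 in members and 0.63 in remaining cells, with 10 of 28 and 4 of 30. For MHC class II the median was 1.16 in members and 0.50 in remaining cells, with 6 and 0 of 8 at least 2-fold higher. Cytokine genes had -0.46 in members and 0.055 in remaining cells, monocyte genes -0.0047 in members and 0.21 in remaining cells, and hypoxia genes 0.14 in members and 0.13 in remaining cells. With the top 2.5% of cells as members, MHC class II had 1.91 in members, and the sign of the hypoxia value turned with the top 10% (-0.043) and with at most 5000 genes per cell (-0.026).

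Among genes with at least 50 CPM in members of a library, the 10 with the highest ratio of Fcmr-/- to Fcmr+/+ members were higher in Fcmr-/- remaining cells too. Below that limit, Gzmb (0 and 419 UMIs in Fcmr+/+ and Fcmr-/- members), Jchain (0 and 257) and Nkg7 (0 and 217), markers of other cell types, differed as widely. Cxcl9, a chemokine that draws CXCR3+ T cells, had 5.54 CPM (interval 4.16 to 7.22) in Fcmr+/+ members and 245 (interval 235 to 255) in Fcmr-/- members, against 15.2 and 181 in remaining cells. Serpina3g, a serine protease inhibitor, had 4 UMIs in 2 Fcmr+/+ members and 479 UMIs in 100 Fcmr-/- members, or 0.410 and 53.0 CPM, against 2.97 and 37.2 in remaining cells. Ly6a, the surface protein Sca-1, had 15.7 and 473 CPM in members and 44.2 and 465 in remaining cells. The GTPase genes Iigp1, Gbp2 and Ifi47 reached log2 ratios of 4.81, 3.61 and 1.85 in members and 4.09, 2.57 and 1.40 in remaining cells. AW112010, an interferon-responsive transcript, reached 3.18 and 2.49, Zbp1, a nucleic acid sensor, 1.77 and 1.39, Ms4a4c 1.81 and 1.17, and Plac8 2.01 and 0.73. T and NK cell markers were also higher in Fcmr-/- members, but 5 of these members held nearly all of their UMIs. Without all cells that carried at least 5 UMIs of another cell type, the ratio in members was 5.26 for Cxcl9, 5.22 for Serpina3g, 4.82 for Ly6a and 1.60 for Plac8.

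Genes lower in Fcmr-/- members included cytokines. Tnf, tumor necrosis factor, had 329 CPM (interval 318 to 340.5) in Fcmr+/+ members and 112 (interval 105 to 119) in Fcmr-/- members, and 253 and 136 in remaining cells. It was spread over the cells, with UMIs in 284 of 334 and 251 of 384 members. Il10, an anti-inflammatory cytokine, had 114 and 49.0 CPM in members and 117 and 49.7 in remaining cells. Retnla, a resistin-like protein of alternatively activated macrophages, had 124 and 14.9 CPM in members and 69.9 and 39.9 in remaining cells, but 10 cells held 96.7% of its UMIs in Fcmr+/+ members and 91.1% in Fcmr-/- members. Mt2, a metallothionein, reached -1.71 in members and -1.88 in remaining cells, Egr1, an immediate-early factor, -1.69 and -1.44, Ednrb, an endothelin receptor, -1.56 and -1.29, and Icam1, an adhesion molecule, -1.12 and -0.82. Cirbp, a cold-inducible RNA-binding protein, reached -1.14 and -1.50, Dhx40, a putative RNA helicase, -1.14 and -0.88, and Akr1b8, an aldo-keto reductase, -1.12 and -0.88.

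**Figure D5:**
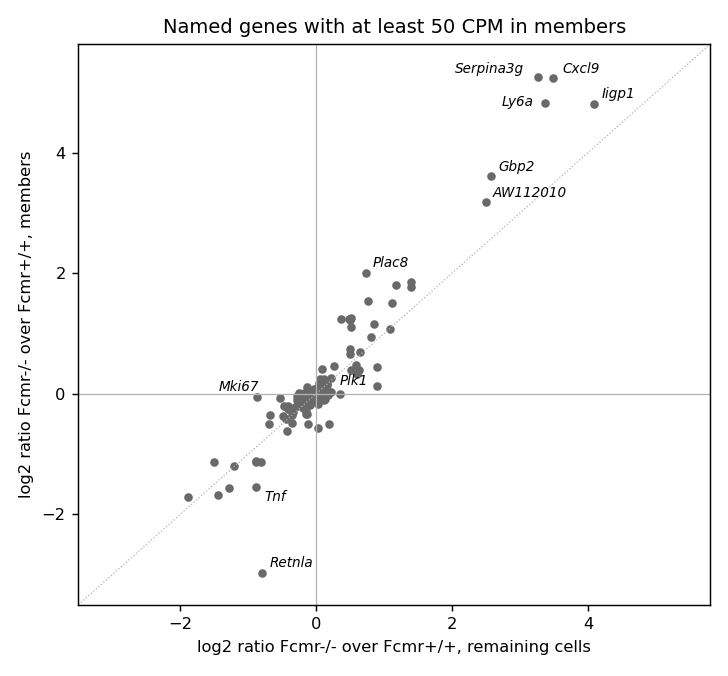
Log2 ratio of Fcmr-/- to Fcmr+/+ in members (vertical axis) against the same ratio in remaining cells (horizontal axis), 1 point for each gene taken by the naming rule with at least 50 CPM in members of a library (the dotted line marks equal ratios). Cxcl9, Serpina3g, Ly6a, Iigp1 and Gbp2 lie above the line, Retnla far below it, and the mitotic genes Mki67 and Plk1 near 0 in members.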

How the data were processed

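The deposited values were whole-number counts of UMIs, which the authors made with Cell Ranger on GRCm38 from droplet-based 3' libraries, beside barcode and gene name files that hold no measurement (other). No normalization was applied to the deposited counts. Of 27998 genes, duplicated symbols were resolved to the identifier with the most UMIs. The submitters' notes also name Seurat 2.1.0, which was not used here. Sums, CPM, log2 ratios after adding 1 CPM and intervals were computed with Python 3.11.15, numpy 2.4.6, scipy 1.17.1 and pandas 2.3.3, and checked on simulated sums. The limits on cells kept 6352 of 6392 and 7999 of 8017 barcodes, the numbers of cells the study gives. The depth was 128408544 and 124630621 UMIs in the cells kept. No doublet caller was run. Cells are not replicates and each genotype has 1 library, which allows neither tests nor p-values.

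Members, gene lists and motifs were chosen with earlier results of these data known. Named were the 6 selecting genes, the 15 highest and 10 lowest genes outside them by the smaller of both libraries' changes among genes with at least 50 CPM, the 10 highest and 10 lowest between members of the libraries, the most abundant genes of each list and regulators fixed by name. Wee1, Ung, Cdkn2c, Cdkn2d and Klf4 were added after their values were seen. Some genes that the rule took are not reported here. Promoters are from RefSeq on GRCm38.p6. Alternatives covered the share of cells taken, the selecting genes, depth, the limits on cells, scaling, the pseudocount, the filter and the motif window.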

Additional observations from a re-analysis of the deposited data

Results flagged for a closer look

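For the genes below, the level in CPM differed between members and remaining cells in opposite directions in the 2 libraries, beyond counting error in each. With 1 library per genotype the difference was not tested, and genotype and library cannot be told apart. Each pair of values is the log2 ratio of members to remaining cells in Fcmr+/+ and then Fcmr-/-, followed by the Fcmr-/- minus the Fcmr+/+ value.

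Of the interferon-induced genes named, 4 were lower in Fcmr+/+ members and higher in Fcmr-/- members, while of the type I interferon list 28 of 30 genes were lower in Fcmr-/- members and of the type II list 16 of 21 were higher. Cxcl9 had -1.31 and 0.43 (difference 1.74), Serpina3g -1.49 and 0.50 (difference 1.99), Gbp2 -0.77 and 0.27 (difference 1.04) and AW112010 -0.37 and 0.32 (difference 0.69). Without cells that carried 5 or more UMIs of another cell type, Cxcl9 had -1.32 and 0.45, and AW112010 -0.37 and 0.20. The Serpina3g value in Fcmr+/+ members rests on 4 UMIs. The chemokine gene Ccl8 had -0.22 and 0.17 (difference 0.40), the selenoprotein gene Sepp1 -0.080 and 0.12 (difference 0.20) and the linker histone gene Hist1h1c -0.50 and 0.33 (difference 0.83).

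The reverse order held for Tnf, with 0.38 and -0.28 (difference -0.65), for the chemokine gene Ccl4, with 0.079 and -0.31 (difference -0.39), and for the cathepsin gene Ctsd, with 0.11 and -0.086 (difference -0.20). Retnla had 0.81 and -1.36 (difference -2.17), and 10 cells held 96.7% of its UMIs in Fcmr+/+ members. Kdr, a vascular endothelial growth factor receptor gene, had 0.57 and -0.64 (difference -1.21) at no more than 7.12 CPM in any group. S100a9 had 3.23 and -1.79 (difference -5.02), but 90 of its 91 UMIs in Fcmr+/+ members were in 1 cell, and without cells carrying other markers the values were 0.00056 and 0.086.

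For some of these genes the share of cells with a UMI, with every cell thinned to 5000 UMIs, did not follow the levels. By its value alone, the share was higher in members of both libraries for 7 genes, given here for members against remaining cells. Only for Sepp1 and Ccl4 were the shares apart beyond counting error in both libraries. For Sepp1 it was 96.4% against 89.1% in Fcmr+/+ and 91.4% against 78.0% in Fcmr-/-. For Ccl8 it was 51.8% against 46.5% in Fcmr+/+ and 73.2% against 60.1% in Fcmr-/-. For Ccl4 it was 77.8% against 64.1% in Fcmr+/+ and 74.0% against 65.3% in Fcmr-/-. The other 4 were Tnf, with 61.4% against 46.7% in Fcmr+/+ and 32.6% against 31.4% in Fcmr-/-, Hist1h1c, with 32.3% against 31.6% in Fcmr+/+ and 25.5% against 20.6% in Fcmr-/-, Retnla, with 4.79% against 4.52% in Fcmr+/+ and 2.60% against 1.79% in Fcmr-/-, and S100a9, with 0.299% against 0.0665% in Fcmr+/+ and 0.260% against 0.236% in Fcmr-/-. For Kdr the share was lower in members of both libraries, at 0.898% against 1.46% in Fcmr+/+ and 2.86% against 4.08% in Fcmr-/-, within counting error. No opposite direction is read for these 8 genes. For Cxcl9, Serpina3g, Gbp2, AW112010 and Ctsd the shares ran in opposite directions by value, but in Fcmr+/+ within counting error. Cxcl9 had 1.20% against 1.38% in Fcmr+/+ and 23.4% against 16.6% in Fcmr-/-. Gbp2 had 4.79% against 6.95% in Fcmr+/+ and 29.2% against 27.4% in Fcmr-/-. Their opposite direction therefore rests on the levels and not on the shares.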

How the results depend on the processing

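Of 702 list medians under an alternative, 641 stayed within the order-statistic interval of the reported median, 59 left it and 2 more, whose interval had excluded 0, reversed. Of those that left it or reversed, 16 had the other sign than the reported median. The cause was not tested unless the alternative itself shows it. No paired analysis was possible because each genotype has 1 library and the labels give no replicate numbers, so there was no replicate to leave out either. Doublets were not called.

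Shares of members (Fcmr+/+, then Fcmr-/-) were 2.60% and 2.43% for the top 2.5%, 10.8% and 9.34% for the top 10% and 5.95% and 4.25% ranked by the raw UMI sum, and stayed within their intervals when each of the 6 genes was left out. For mitotic genes in members against remaining cells (Fcmr+/+, then Fcmr-/-), the medians were 3.58 and 3.73 with the top 10%, 3.53 and 3.66 after thinning to 5000 UMIs, 3.74 and 3.98 with at most 5000 genes per cell, 3.69 and 3.75 as a mean over cells, 3.57 and 3.62 with a pseudocount of 0.1 CPM and 2.63 and 2.66 with 5 CPM. For replication they were 1.47 and 1.58, 1.48 and 1.62, 1.73 and 1.66 and 1.35 and 1.70 under the first 4 of these. For MHC class II in Fcmr+/+, they were -1.94 with the top 2.5%, -1.41 after thinning and -1.43 as a mean over cells. In Fcmr-/-, type I interferon genes had -0.64 after thinning and type II 0.33 with at most 5000 genes.

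Genes at least 2-fold higher in members numbered 306 and 330 at a minimum of 20 CPM. Those at least 2-fold lower numbered 295 and 275 after thinning, 247 and 240 as a mean over cells, 98 and 98 with a pseudocount of 5 CPM and 88 and 98 at 20 CPM.

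For Fcmr-/- against Fcmr+/+ members, mitotic genes had medians of 0.12 after thinning, 0.17 with at most 5000 genes, -0.057 ranked within each library and 0.027 as a mean over cells, so their direction is not settled. Replication had 0.050 with the top 2.5%, 0.099 with the top 10% and 0.069 after thinning. Hypoxia had 0.25 with the top 2.5%, -0.043 with the top 10% and -0.026 with at most 5000 genes. MHC class II had 1.91 with the top 2.5%, the anaphase-promoting complex 0.092 with at most 5000 genes and the transcription factors 0.098 after thinning. Genes at least 2-fold higher numbered 251 after thinning, 62 at 20 CPM and 226 without a filter. Those at least 2-fold lower numbered 56, 137, 57, 18, 21 and 64 with the top 2.5%, thinning, at most 5000 genes, a pseudocount of 5 CPM, 20 CPM and no filter. With the 250 bases before the start alone, TTTGAA was in 28.9% of mitotic gene promoters.

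Leaving out cells with 2 or more UMIs of any list of another cell type kept 329 and 374 cells with 15 and 20 members. The plasmacytoid list held Bst2 and Tcf4, which had 328 and 96.7 CPM in remaining Fcmr+/+ cells. The shares were then 4.56% and 5.35%. In members against remaining cells, replication had 1.70 and 2.29, type I interferon -1.05 and -0.037 and type II 0.87 and 0.32. In Fcmr+/+, mitotic genes had 3.78, macrophage identity 0.12, immediate-early genes -0.58 and cytokines 0.090, of which the last changed sign past its interval. In Fcmr-/-, the self-renewal regulators had 0.15, oxidative phosphorylation 0.032 and immediate-early genes 0.22, of which the last did so too. Genes at least 2-fold higher numbered 2069 and 1788, and lower 1059 and 1254. For Fcmr-/- against Fcmr+/+ members, mitotic genes had -0.60, the anaphase-promoting complex 0.14, replication 0.78, histones 1.08, transcription factors 0.12, self-renewal regulators 0.27, type I interferon 1.19, type II 0.58, hypoxia 0.27 and immediate-early genes 0.54, with 2132 genes at least 2-fold higher and 2252 lower. An alternative added after the data were seen left out cells with 5 or more UMIs of lists reduced to genes under 5 CPM in remaining cells. It kept 6299 and 7905 cells with 334 and 376 members, and the shares, counts and list medians recomputed stayed within their intervals or, for counts, within 1.5 times. Single genes of other cell types did not, such as S100a9.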
